A study of Danio rerio with 6 samples.

Results

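The cranial motor neuron transcription factors examined here were the islet genes *isl1*, *isl2a* and *isl2b*, the phox2 genes *phox2a*, *phox2ba* and *phox2bb*, the T-box gene *tbx20* and the mnx genes *mnx1*, *mnx2a* and *mnx2b*. They were chosen by name as 10 of the 23025 genes listed, and all 10 passed the filter on low counts, which left 20463 genes for testing. RNA was sequenced from pooled hindbrains of zebrafish embryos at 48 hours post fertilization (hpf), with 3 wildtype (WT) libraries and 3 libraries from homozygous *gas6* mutants. Both genotypes carried the *olig2:EGFP* transgene, in which *olig2* regulatory sequence drives a green fluorescent protein, and this signal guided the dissection. The mutant line was made by CRISPR/Cas9 cutting in the first coding exon of *gas6* and carries frame-shift alleles, and which allele the sequenced embryos had is not given in the sources used here. The growth and collection of the pools as separate clutches is also not described, so p-values measure the spread between these libraries, which may be technical.

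Cranial motor neurons of the hindbrain fall into branchiomotor and visceral motor neurons, which innervate muscles of the pharyngeal arches and parasympathetic ganglia, and somatic motor neurons such as those of the abducens nerve. In mouse, the postmitotic neurons of the branchiomotor and visceral class express *Isl1* and *Tbx20*. Somatic motor neurons arise from *Olig2* progenitors, and in mouse *Mnx1* keeps them from taking on interneuron features. The teleost lineage kept extra copies of several of these genes, which carry a and b suffixes in zebrafish.

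Levels are given as CPM, the counts of a gene relative to the library total after scaling by TMM, a factor that corrects for a few genes taking a large share of reads. They are not corrected for gene length, so differences in level are read between libraries and not between genes. Sums over genes and rankings by abundance follow the counts, in which longer genes weigh more. Library totals ranged from 18376627 to 27025868 counts. The *gas6* transcript, the target of the mutation, was at 39.1 ± 3.26 CPM in WT and 5.01 ± 0.674 CPM in mutants (mean ± SD, n = 3 libraries per genotype here and below). On the first principal component, which held 74.9% of the variance, the genotypes separated, and on the second, with 9.79%, WT library 1 stood apart from the others. Lens transcripts also differed by genotype, with 14 of 14 tested lens genes higher in mutants and a summed level of 1.55 to 42.5 CPM in WT libraries against 521 to 1236 CPM in mutant libraries. All 14 passed the test given below as higher, as did 16.7% of all tested genes. In WT library 1 the lens genes *cryba2a*, *crybb1*, *lim2.4* and *gja8b* were at 0 counts, and the part of eye tissue in the members' levels was not tested.

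Of the 10 factors, *phox2bb* and *mnx2b* were called at an adjusted p under 0.05 (edgeR quasi-likelihood test, Benjamini-Hochberg over all genes tested), both lower in mutants, and none was called higher. The count of members higher in mutants was also 0 at an unadjusted p under 0.05 and 0 in DESeq2 and limma voom. Among all tested genes 33.3% were called, 16.6% lower and 16.7% higher, so the members' count of 2 of 10 was not above this background. The counts of the related lists are to be read against the same shares. Among the 14293 genes within the members' own range of mean level, 33.7% were called. None of the 10 differed by more than 2-fold, whether called or not, and 9.65% of all tested genes were both called and past 2-fold. By sign alone 3 members were higher and 7 lower in mutants under TMM, 5 of these signs turned under another scaling, and the members had a median log2 fold change of -0.07 against 0.02 for all tested genes. The sum of all 10 was 519, 473 and 517 CPM in the WT libraries and 438, 453 and 466 CPM in the mutant libraries. Of these sums *phox2bb* alone made up 157, 135 and 159 CPM in WT and 117, 118 and 101 CPM in mutants. The sums of the islet genes and of the mnx genes overlapped between genotypes, as did *tbx20*, so the total does not show a lower level of the whole group.

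**Figure D1:**
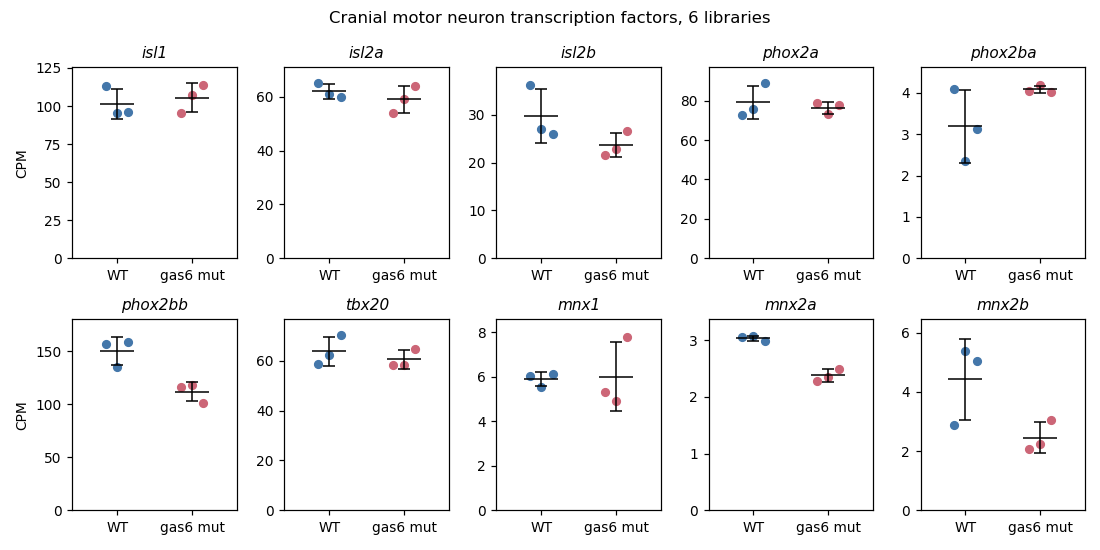
Level of each cranial motor neuron transcription factor (CPM, linear axes from 0) in 3 WT (blue) and 3 *gas6* mutant (red) libraries, in replicate order from left to right, with the mean as a horizontal line and the SD as bars. The mutant *phox2bb* libraries lie between 101 and 118 CPM, below the WT libraries at 135 to 159 CPM.

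The clearest difference among the phox2 genes was in *phox2bb*, which encodes a paired-like homeodomain factor. Its level was 157, 135 and 159 CPM in WT libraries 1, 2 and 3 and 117, 118 and 101 CPM in mutant libraries 1, 2 and 3. Each mutant library was below each WT library. The mean fell from 150.5 ± 13.1 to 111.9 ± 9.29 CPM, which is 74.4% of the WT level. The log2 fold change was -0.43 (SE 0.106, 95% interval -0.66 to -0.20, adjusted p = 0.00888). Here and throughout these bulk samples, fewer cells of a type and less RNA per cell cannot be told apart. The estimate ranged from -0.51 to -0.36 when each library was left out in turn, and the call held in all 6 cases. When libraries were scaled by their totals alone, the difference was -0.28 and the call was lost (adjusted p = 0.0733). That scaling moved the median of all genes to 0.16, and relative to this median *phox2bb* was at -0.44, as it was under TMM. A change of scaling shifts all genes by nearly the same amount, so this match was fixed in advance and does not restore the call.

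Its duplicate *phox2ba* had a low count of 56 to 117 per library. Its level was 4.1, 2.35 and 3.12 CPM in WT and 4.06, 4.18 and 4.02 CPM in mutants, so WT library 1 lay among the mutant libraries and the groups overlapped. The log2 fold change was 0.36 (SE 0.211, 95% interval -0.10 to 0.82, adjusted p = 0.211). Without WT library 1 it was 0.58 with an adjusted p of 0.0397. The WT libraries varied with a coefficient of variation of 27.4%, above the 10.7% that counting alone gives at this depth, while the mutant libraries varied by 2.11%.

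*phox2a*, which in mouse is needed for the oculomotor and trochlear nuclei and in zebrafish for noradrenergic neurons of the locus coeruleus, was at 72.7, 75.8 and 88.8 CPM in WT and 78.6, 73.1 and 77.9 CPM in mutants. The mutant libraries lay inside the WT range. The log2 fold change was -0.05 (SE 0.104, adjusted p = 0.752), and its 95% interval ran from 82.7% to 113% of the WT level. Summed over the 3 phox2 genes, the level was 234, 214 and 251 CPM in WT and 199, 195 and 183 CPM in mutants. These sums did not overlap, and most of the difference between them was in *phox2bb*.

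Phox2 genes also act outside motor nuclei, in noradrenergic neurons and in cranial sensory ganglia. Of 8 noradrenergic genes, 4 rose and 1 fell (median log2 fold change 0.39), where 33.3% of all tested genes were called. The noradrenergic genes summed to 310.0 to 333 CPM in WT and 317 to 346 CPM in mutants, with none at 0 in any library. Among them *th*, the rate-limiting enzyme of catecholamine synthesis, rose from 2.67 ± 0.181 to 4.19 ± 0.446 CPM, while the receptor gene *ret* fell from 56.4 ± 1.37 to 44.9 ± 1.01 CPM. Whichever library was left out, 2 or 3 of the 8 were called, and 2 with pan-neuronal scaling. Of 15 sensory ganglion genes, 2 rose and 2 fell (median 0.02), and 8 were called with pan-neuronal scaling. Their sums were 300.3 to 336 CPM in WT and 291 to 315 CPM in mutants. Of these, *eya1*, not called, made up 149.6 ± 17.5 CPM in WT and 131.7 ± 4.63 CPM in mutants. The part of these lists in the *phox2bb* difference was not tested.

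*tbx20*, which in mouse is needed for the migration of facial branchiomotor neurons, was at 58.9, 62.2 and 70.3 CPM in WT and 58.5, 58.5 and 65.0 CPM in mutants. The groups overlapped, with mutant library 3 above both of the lower WT libraries. The log2 fold change was -0.07 (SE 0.104, adjusted p = 0.619), and the 95% interval ran from 81.3% to 111% of the WT level. *tbx20* is also expressed in the heart. Of 8 heart genes 1 rose, *nppa*, which encodes a natriuretic peptide, where 16.7% of all tested genes were called higher. The count called was 2 without WT library 2, under library totals alone and under pan-neuronal scaling. The summed heart level was 218 to 272 CPM in WT and 229 to 263 CPM in mutants, with no gene at 0. The contractile genes *myl7* and *vmhc* were at 46.3 ± 5.18 and 105.6 ± 13.6 CPM in WT and at 51.4 ± 4.86 and 97.4 ± 5.94 CPM in mutants, and neither was called. Heart transcripts were thus present in all 6 libraries, and their part in the *tbx20* level was not tested.

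*isl1*, a LIM homeodomain factor among the earliest markers of postmitotic motor neurons, was at 113, 95.2 and 95.9 CPM in WT and 95.2, 108 and 114 CPM in mutants. The libraries of the genotypes interleaved, and the 95% interval of the difference ran from 88.4% to 123% of the WT level. *isl2a*, a related LIM homeodomain gene of primary and somatic motor neurons, was at 65.1, 61.2 and 59.8 CPM in WT and 53.9, 59.2 and 64.1 CPM in mutants. These groups overlapped as well, with an interval of 81.8% to 111%. Neither gene was called (adjusted p = 0.713 and 0.624).

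*isl2b*, which in zebrafish marks trigeminal sensory neurons and retinal ganglion cells besides motor neurons, had the largest estimated difference among the islet genes. It was at 36.2, 27.1 and 26.1 CPM in WT and 21.7, 22.9 and 26.6 CPM in mutants. WT library 1 was the highest, and mutant library 3 lay above WT library 3. The log2 fold change was -0.33 (SE 0.140, 95% interval -0.63 to -0.02), which had an unadjusted p of 0.0383 in edgeR and an adjusted p of 0.0929. Without WT library 1 the value was -0.17 (adjusted p = 0.267). While 16.7% of all tested genes were called higher, 7 of 8 retinal ganglion cell genes were (median log2 fold change 1.22). Their summed level was 43.8 to 54.2 CPM in WT and 82.1 to 98.6 CPM in mutants, with no gene at 0. Their part in the islet gene levels was not tested. Summed over the 3 islet genes, the level was 193 ± 18.3 CPM in WT and 188 ± 16.8 CPM in mutants.

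The mnx genes had few reads. *mnx2b* was counted at 63, 128 and 108 in WT and at 41, 63 and 84 in mutants. As levels these were 2.87, 5.38 and 5.03 CPM in WT and 2.08, 2.25 and 3.04 CPM in mutants. WT library 1 was low and lay below mutant library 3, so the groups overlapped in 1 library of each. The mean fell from 4.43 ± 1.36 to 2.46 ± 0.513 CPM, or 55.5% of WT, with a log2 fold change of -0.84 (SE 0.254, 95% interval -1.39 to -0.29, adjusted p = 0.0240). This call did not hold without WT library 2 (-0.69, adjusted p = 0.0748), WT library 3 (-0.75, 0.0729), mutant library 1 (-0.74, 0.0784) or mutant library 2 (-0.77, 0.0883). It was also lost with library totals alone (-0.71, adjusted p = 0.0672).

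*mnx2a* was at 3.05, 3.07 and 2.98 CPM in WT and 2.28, 2.36 and 2.5 CPM in mutants. Every mutant library lay below every WT library, yet the gene was not called (log2 fold change -0.35, SE 0.186, 95% interval -0.75 to 0.06, adjusted p = 0.170). The WT libraries varied by 1.47%, below the counting error of 12.5%, so the spread of these levels is narrower than the error of the counts behind them, which ranged from 45 to 73. *phox2bb* and *mnx2a* were the members without overlap between genotypes, both lower in mutants. In all tested genes 49% had no overlap and 24.2% had none with the mutants lower.

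*mnx1*, the orthologue of the mouse somatic motor neuron gene of the same name, was at 6.06, 5.54 and 6.11 CPM in WT and 5.32, 4.90 and 7.78 CPM in mutants. Mutant library 3 was the highest and mutant library 2 the lowest of all 6. The log2 fold change was 0.03 (SE 0.190, adjusted p = 0.924), and the 95% interval, from 76.6% to 136% of WT, was wider than that of the more deeply counted factors. *mnx1* also acts in the endocrine pancreas. Of 5 tested pancreatic genes 2 fell, the glucagon gene *gcgb* and the somatostatin gene *sst2*, where 16.6% of all tested genes were called lower. The genotypes overlapped in *sst2*, with mutant library 3 at 8.25 CPM and WT library 3 at 7.74 CPM. Of the 5 pancreatic genes 4 were called without WT library 3 or with pan-neuronal scaling. The summed level was 68.0, 57.9 and 37.6 CPM in WT and 25.4, 32.6 and 38.0 CPM in mutants, with no tested gene at 0. The part of pancreatic RNA in the mnx differences was not tested.

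**Figure D2:**
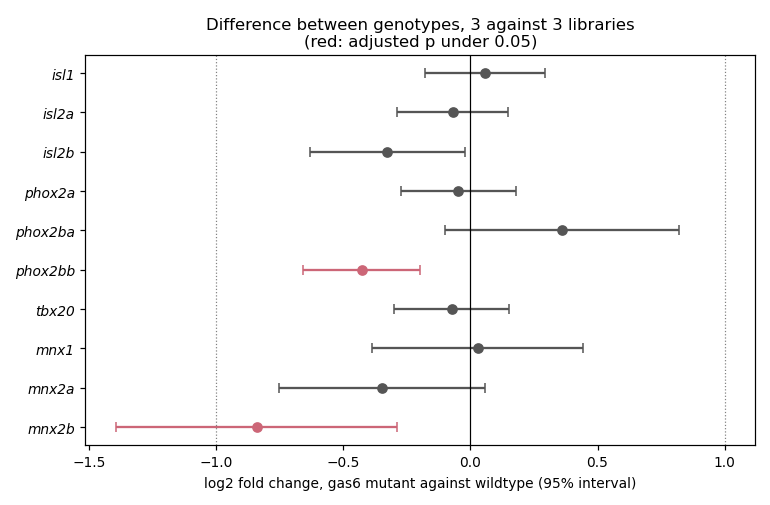
Log2 fold change of each factor, *gas6* mutant against WT (edgeR estimate, point) with its 95% interval (bar), in red where the adjusted p was under 0.05. *phox2bb* at -0.43 and *mnx2b* at -0.84 are red, and dotted lines mark a 2-fold difference. Under other library scalings the points for *isl1*, *isl2a*, *phox2a*, *tbx20* and *mnx1* cross 0.

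The direction of 5 uncalled members depended on the scaling. Under TMM 9 of 17 pan-neuronal genes rose and 3 fell, where 16.7% of all tested genes were called higher and 16.6% lower. With the scaling factor taken from these pan-neuronal genes, the median of all genes moved to -0.24. *isl2b* (-0.60, adjusted p = 0.0135) and *mnx2a* (-0.60, adjusted p = 0.0301) were then called in addition to *phox2bb* (-0.69, adjusted p = 0.00123) and *mnx2b* (-1.08, adjusted p = 0.00232). Relative to that median, these 4 genes were at -0.35, -0.36, -0.45 and -0.83, close to their values under TMM. Because a scaling shifts all genes by nearly the same amount, this closeness was fixed in advance and is no further test of the 4 differences. *isl1* was at -0.21 and *mnx1* at -0.23 under this scaling, whereas *isl2a*, *phox2a* and *tbx20* were at 0.076, 0.095 and 0.069 with library totals alone. None of these 5 genes was called under either.

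Ratios between paralogues within a library do not depend on the scaling, so they show whether members of a family differed unequally between genotypes. In 7 of the 9 pairs the ratios of the WT and mutant libraries did not overlap, which held for 48.8% of all pairs of tested genes that averaged 10 or more counts and had no 0. The 9 pairs share members, so they are not independent of each other. With 3 libraries against 3 the exact two-sided permutation test cannot give a p below 0.1, and no pair could pass 0.05. These 7 pairs were at that smallest p, with 0.129 after adjustment over the 9 pairs.

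Within the phox2 family, the log2 ratio of *phox2ba* to *phox2bb* was -5.26, -5.85 and -5.67 in WT and -4.85, -4.82 and -4.66 in mutants. All mutant ratios were higher, and the mean differed by 0.82. The ratio of *phox2a* to *phox2bb* was -1.11, -0.84 and -0.84 in WT and -0.57, -0.69 and -0.38 in mutants, again without overlap and with a mean difference of 0.38. That of *phox2a* to *phox2ba* overlapped between genotypes (mean difference -0.44, exact permutation p = 0.3).

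Within the islet family, the log2 ratio of *isl1* to *isl2b* was 1.64, 1.82 and 1.88 in WT and 2.13, 2.23 and 2.1 in mutants. It was higher in every mutant library, with a mean difference of 0.38. The ratios of *isl2a* to *isl2b* (mean difference 0.24) and of *isl1* to *isl2a* (0.13) were also higher in all mutant libraries. For *isl1* to *isl2a* the separation was narrow, with the highest WT ratio at 0.80 and the lowest mutant ratio at 0.82. Within the mnx family, *mnx1* to *mnx2b* differed by 0.81 and *mnx1* to *mnx2a* by 0.35, both without overlap. Both separations were narrow as well. The highest WT and lowest mutant ratios were 1.078 and 1.121 for *mnx1* to *mnx2b*, and 1.033 and 1.054 for *mnx1* to *mnx2a*. These gaps are narrower than the counting error of the mnx genes, which was 8.39% to 12.5% per library. *mnx2a* to *mnx2b* differed by 0.47 with overlap, since WT library 1 was at 0.09 and mutant library 3 at -0.28 (exact permutation p = 0.3).

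**Figure D3:**
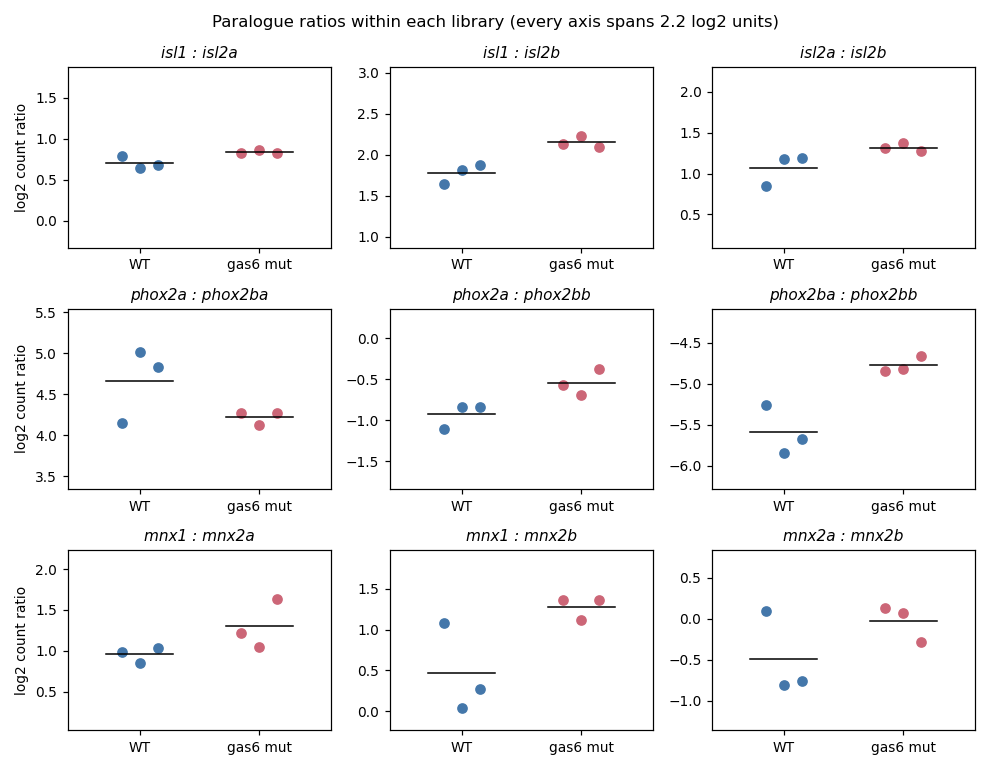
Log2 ratio of the counts of 2 family members within each library, in 3 WT (blue) and 3 *gas6* mutant (red) libraries in replicate order, with the mean as a line; every panel spans the same log2 range. The mutant ratios lie above the WT ratios in 7 panels, and the groups overlap for *phox2a* to *phox2ba* and for *mnx2a* to *mnx2b*.

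The neural genes whose pattern over the 6 libraries was nearest to each member's were sought among 76 genes for progenitors, LIM cofactors, effectors, migration and other neuron classes. Likeness was measured as the root mean square distance between centred log2 profiles. For *phox2bb* these were *lbx1a* and *lmx1bb*, factors of dorsal interneurons, at distances of 0.0544 and 0.0639. They had log2 fold changes of -0.40 and -0.42. The distance takes in the difference between genotypes, so a near gene has a similar fold change by the way it was chosen. For *mnx2b* the nearest were the cadherins *celsr1b* and *celsr1a*, at larger distances of 0.208 and 0.226. *isl2b* was nearest to *nkx2.2a* (0.0875) and *evx1* (0.115). *isl1* was nearest to *gata2a* and *lmo4a* (0.0627 and 0.0687), and *tbx20* and *phox2a* shared *pax8* as the nearest gene (0.0657 and 0.0931).

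Upstream of these neurons stand the patterning factors of their ventral progenitors. All 8 that were tested were called, 6 lower and 2 higher in mutants, with a median log2 fold change of -0.46, and none of them overlapped between genotypes. In all tested genes 33.3% were called and 49% had no overlap. This list, like the others, was chosen with earlier results of these data known. With a library left out 5 to 7 of the 8 were called, 5 of them without mutant library 2, and 6 were called under either library totals alone or pan-neuronal scaling. The largest difference was in *nkx2.9*, a homeobox gene of the most ventral domain, which in mouse produces branchiomotor and visceral motor neurons. It was at 5.65, 5.17 and 3.78 CPM in WT and 1.47, 0.89 and 1.52 CPM in mutants. All mutant libraries were low, and the log2 fold change was -1.92 (SE 0.251, adjusted p = 0.000167).

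*nkx2.2b*, of the same domain, fell from 10.2 ± 1.52 to 4.80 ± 0.937 CPM (log2 fold change -1.10). *nkx6.1*, which in mouse acts in motor neuron progenitors, was at 111, 89.4 and 102 CPM in WT and 61.9, 61.2 and 63.1 CPM in mutants. The mutant libraries were close to each other and far below WT (log2 fold change -0.70, SE 0.103, adjusted p = 0.000385). *nkx6.2* fell by 0.48, *pax6a* by 0.44 and *nkx2.2a* by 0.38 on the log2 scale, and the last was not called when any of the 6 libraries was left out. *pax6a* was not called without mutant library 2, without mutant library 3 or with library totals alone. *olig2*, the somatic motor neuron and oligodendrocyte progenitor factor whose regulatory sequence also drives the transgene, was higher by 0.49, and *pax6b* by 0.51, which was not called in 3 of the 6 cases with a library left out. Under pan-neuronal scaling neither *olig2* nor *pax6b* was called.

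**Figure D4:**
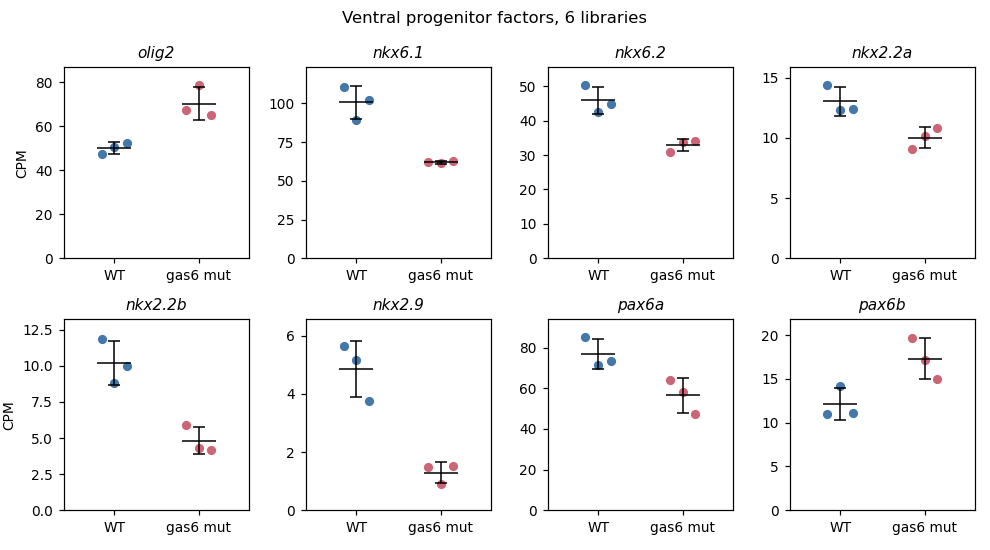
Level of the 8 ventral progenitor factors (CPM, linear axes from 0) in 3 WT (blue) and 3 *gas6* mutant (red) libraries, in replicate order, with mean and SD. *nkx2.9*, *nkx2.2b* and *nkx6.1* show the widest gaps below WT, and *olig2* and *pax6b* lie above it.

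Islet factors act in complexes with other LIM homeodomain proteins and with LIM domain binding cofactors. The list names *lhx3*, *isl1l*, *ldb1b* and *rlim* had no match among the genes listed, so they were not tested. Of 16 tested genes of this group, 8 rose and 1 fell, with a median log2 fold change of 0.26. The shares in all tested genes were 16.7% higher and 16.6% lower. The cofactor *ldb2b* rose from 28.8 ± 3.38 to 58.4 ± 5.90 CPM and *lmo1*, a LIM-only protein, from 20.8 ± 0.724 to 36.8 ± 4.90 CPM. *ssbp2*, which encodes a partner of the Ldb proteins, rose from 2.21 ± 0.271 to 3.86 ± 0.481 CPM. The calls of *ldb2b* and *lmo1* held under every setting and with any library left out. That of *ssbp2* was lost without mutant library 2. With pan-neuronal scaling *ssbp2*, *lhx1a*, *lmo3*, *lmo4b* and *ldb2a*, all among the 8 that rose, were not called. *ldb2a* also lost its call in 5 of the 6 cases with a library left out. Of the 16 genes, 6 to 8 were called with a library left out and 7 to 9 under the other settings. These counts take in both directions and do not always hold the same genes. The most abundant, *ssbp4* and *ssbp3b*, were not called.

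Motor neuron effector genes, which act downstream of these factors, were mixed. Of 6 tested, 1 rose and 2 fell (median -0.06), where 33.3% of all tested genes were called. The list names *chatb*, *slc18a3b*, *slc5a7a* and *slc5a7b* had no match and were not tested. The choline acetyltransferase gene *chata*, which makes the transmitter of motor neurons, rose from 8.07 ± 2.93 to 12.9 ± 1.23 CPM. Its log2 fold change was 0.67 with an adjusted p of 0.0384. WT library 1 was at 4.69 CPM, and WT libraries 2 and 3 were at 9.79 and 9.74 CPM. The *chata* call was lost with pan-neuronal scaling and in 3 of the 6 cases with a library left out. Not called were *slc18a3a* (log2 fold change 0.05, adjusted p = 0.857), *ache* (0.13, 0.454) and *prph* (-0.16, 0.284). The adhesion gene *alcama* fell from 331 ± 38.1 to 229 ± 2.39 CPM, and *agrn*, which encodes the synapse organizer agrin, from 148 ± 17.5 to 112 ± 6.77 CPM, the latter not called in 3 of the 6 cases. Without mutant library 1 or mutant library 2, 1 of the 6 genes was called.

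Of 17 genes known from the migration of facial branchiomotor neurons, 8 fell, with a median of -0.27. In all tested genes 16.6% were called lower. The atypical cadherin gene *celsr2* was the extreme, going from 131 ± 5.89 to 51.2 ± 2.39 CPM with a log2 fold change of -1.35 (SE 0.0954) and an adjusted p of 1.64e-06. *nhsl1b*, which in zebrafish acts in these neurons as they migrate, fell from 142 ± 2.23 to 73.9 ± 3.25 CPM, and *celsr1b* from 76.9 ± 17.4 to 43.9 ± 3.11 CPM. Their 2 most abundant genes were *hdac1*, not called, and *cdh2*, which fell by 0.29 on the log2 scale and lost its call in 5 of the 6 cases with a library left out. With library totals alone 4 of the 17 were called, and 5 without mutant library 1. These genes are also expressed outside motor neurons, as are the progenitor factors and cofactors. The authors examined facial motor neuron migration in *gas6* mutants by in situ hybridization for *islet1* and detected no disruption. By immunostaining they also found the abducens neurons of these mutants present and normally patterned. Those are different measures from the RNA levels given here.

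Transcription factors of other hindbrain and spinal neuron classes were called in both directions. Of 29 tested, 9 rose and 4 fell (median 0.13), where 16.7% of all tested genes were called higher and 16.6% lower. *vsx1*, a gene of V2 interneurons and retinal bipolar cells, rose from 8.46 ± 0.790 to 35.1 ± 4.63 CPM. *sim1b* rose from 0.386 ± 0.0300 to 1.30 ± 0.198 CPM and *lhx2b* from 33.6 ± 6.51 to 55.8 ± 6.03 CPM. Over these 5 neural groups 41 of 76 genes were called (53.9%), 20 higher and 21 lower, against 33.3% of all tested genes. The lists were chosen with earlier results of these data known, so these shares do not test whether such genes differed more often. Of the 41 genes, 24 kept their call whichever library was left out. Of these, 17 also kept it under every other setting.

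The extent of the dissected tissue also touches the members, since *mnx1*, *mnx2a*, *mnx2b*, *isl1* and *isl2a* are expressed in spinal motor neurons. Of 11 tested Hox genes of spinal levels, 5 rose (median 0.45), where 16.7% of all tested genes were called higher. The count of these Hox genes called was 3 without WT library 3, mutant library 2 or mutant library 3, 3 with pan-neuronal scaling and 8 with library totals alone. The summed Hox level was 148 to 170 CPM in WT and 193 to 226 CPM in mutants, with no tested gene at 0. The mnx genes summed to 12.0, 14.0 and 14.1 CPM in WT and 9.68, 9.51 and 13.3 CPM in mutants, and these sums overlapped between genotypes. The part of spinal tissue in the members' levels was not tested.

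**Figure D5:**
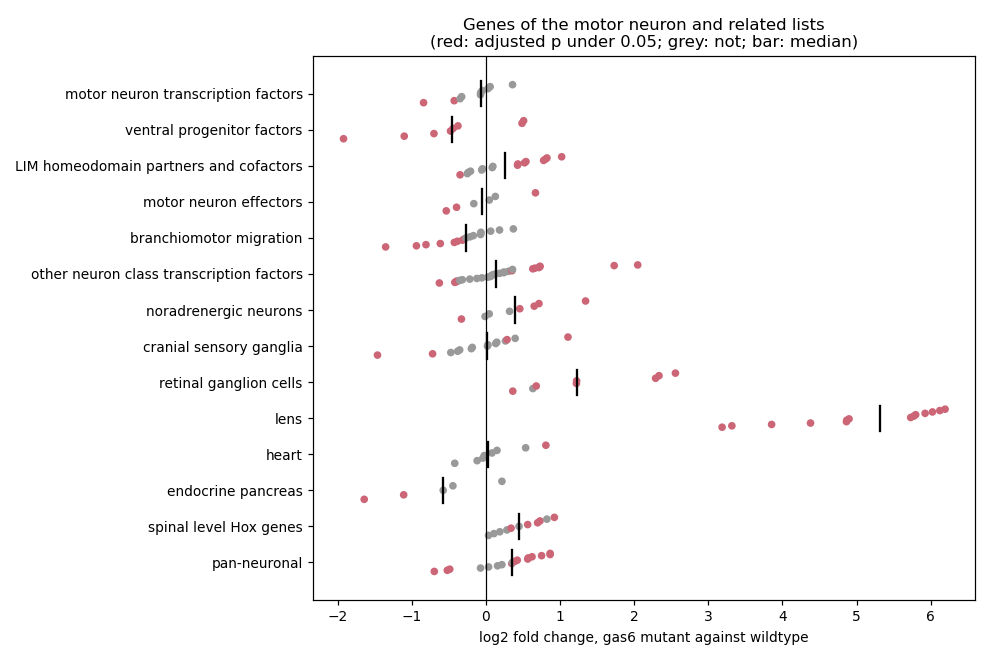
Log2 fold change, *gas6* mutant against WT, of the genes of each list (points, red where the adjusted p was under 0.05 and grey otherwise) with the list's median as a black bar. The motor neuron factors lie within 1 log2 unit of 0 with a median of -0.07, the ventral progenitor factors have a median of -0.46 and the lens genes 5.31; directions of grey points can turn with the library scaling.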

How the data were processed

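Polyadenylated RNA from pooled hindbrains was made into stranded libraries. Reads were processed by the authors through Dolphin, a web interface, and the submitters' processing notes name FastQC, RSEM 1.2.28, DESeq2 and the builds GRCz10 and danRer7, without roles. The authors deposited estimated counts per gene and library, not normalized. Their columns of log2 fold change, fold change and adjusted p-value were not used.

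After rounding, genes of low count were removed by filterByExpr (minimum count 10 and minimum total 15) in edgeR 4.0.16, under R 4.3.3. The quasi-likelihood test of edgeR (glmQLFit, glmQLFTest) was fitted to TMM-scaled libraries with a term for genotype, and Benjamini-Hochberg adjustment covered the 20463 genes kept. A call was an adjusted p under 0.05. SEs came from the F statistic. Alternatives were DESeq2 1.42.0, voom in limma 3.58.1, 4 other scalings, no filter, a replicate block and each library left out. The main test was first run on simulated data with a common dispersion and few changed genes. That setting differs from these data and does not bear on the choice of scaling. No pair of libraries of the same genotype was a duplicate (6.99 to 25.9 in chi-square over degrees of freedom).

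Paralogue ratios used unscaled counts with a mean of at least 10, and profiles for likeness used log2(CPM + 0.5). Counts of 6 members were fractional in at least 1 library, as where reads matching several genes are divided. The members and lists were chosen with earlier results of these data known. Of 176 list names 165 were matched, 4 by RefSeq synonyms and 2 by letter case. Besides all members and *gas6*, the rule for naming genes took the 3 called and non-overlapping genes with the largest change and the 2 most abundant of each list, and the 2 nearest in pattern to each member. Not every gene so taken is described. Chosen after their values were seen were *olig2*, *nkx6.2*, *nkx2.2a* and *pax6b*, which complete the progenitor list, and *cryba2a*, *lim2.4* and *gja8b*, which with *crybb1* were at 0 in a library. So were *slc18a3a*, *ache* and *prph*, which complete the tested effector genes. *lhx1a*, *lmo3*, *lmo4b* and *ldb2a* were also chosen then, as their calls were lost with pan-neuronal scaling. Coordinates are not given.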

Additional observations from a re-analysis of the deposited data

How the results depend on the processing

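The number of motor neuron factors called was 2 under DESeq2, RLE and upper quartile scaling, voom, no filter on low counts and the replicate block. It was 0 with library totals alone and 4 with pan-neuronal scaling, and ranged from 1 to 3 with a library left out. *phox2bb* lost its call with library totals alone, and *mnx2b* there and in 4 of the 6 cases with a library left out. Signs turned for uncalled members. With pan-neuronal scaling *isl1* was at -0.21 and *mnx1* at -0.23, and with library totals alone *isl2a* was at 0.076, *phox2a* at 0.095 and *tbx20* at 0.069. With a library left out *isl1* ranged from -0.00033 to 0.14, *phox2a* from -0.11 to 0.032 and *mnx1* from -0.21 to 0.16, and without WT library 2 *mnx1* was at -0.03. Calls over all genes numbered 6813 (3425 higher, 3388 lower), 6842 with library totals alone (4829 higher, 2013 lower) and 8234 with pan-neuronal scaling (1724 higher, 6510 lower). The related neural genes called ranged from 27, without mutant library 2, to 41 with a library left out, and from 33 to 41 elsewhere. The cause of these changes was not tested.

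With the replicate block 6359 genes were called, and *phox2bb* (-0.43, adjusted p = 0.0136) and *mnx2b* (-0.84, adjusted p = 0.0129) kept their calls. The labels give no shared origin for equal numbers, and deviations of same-numbered libraries correlated at 0.000072, -0.097 and 0.021 across genes, so the numbers were not taken as pairs, and 1 of 6 libraries correlated best with its own number. Counting error was 8.39% to 12.5% per library for *mnx1*, *mnx2a*, *mnx2b* and *phox2ba*, and 1.80% to 3.97% for the other members.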
